A study of Mus musculus with 6 samples.

Results

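Intermediate filament genes encode the proteins of the flexible cytoskeletal network whose make-up differs between cell types. The 8 genes described here were Nes, Vim, Gfap, Synm, Des, Ina, Nefl and Nefm. They were taken by name, as a list of filament genes, from the 32285 genes of the deposited count table. The samples were suspensions of striatum from wild-type male C57BL/6 mice, enriched for astrocytes with magnetic beads against the astrocyte surface antigen ACSA2 and profiled by droplet single-cell RNA-Seq. There were 3 libraries at postnatal day 3 (P3) and 3 libraries at 3 months (3m), all from untreated animals, and the study describes each preparation as pooled brains of several animals with the subventricular zone cut away. The question behind the comparison of ages is how the astrocyte transcriptome changes as the cells mature.

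Each filament protein has a central rod that pairs into coiled coils, and only certain partners assemble together. Nestin (Nes) and vimentin (Vim) are filament proteins of neural progenitors and immature glia, and both are also found in vessel cells. Glial fibrillary acidic protein (Gfap) is the classical astrocyte filament protein, and it is known to be scarce in many grey matter astrocytes and to rise when astrocytes become reactive. Synemin (Synm) needs a partner such as vimentin or desmin. Desmin (Des) is the filament protein of muscle and of mural cells, the contractile cells and pericytes around vessels. Alpha-internexin (Ina) and the light and medium neurofilament chains (Nefl and Nefm) form the filaments of neurons. The study itself used Gfap and Des as cell type markers and Nes as a gene of immature cells, so their presence in the correspondingly named clusters is not independent evidence.

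In the GRCm38 assembly with the GENCODE M21 annotation, Nes lies on chr3:87971078-87980451 on the forward strand, Vim on chr2:13573927-13582826 on the forward strand and Gfap on chr11:102887336-102900912 on the reverse strand. Synm lies on chr7:67730160-67759742 on the reverse strand, Des on chr1:75360329-75368579 on the forward strand and Ina on chr19:47014698-47025327 on the forward strand. Nefl on chr14:68083863-68089095 runs on the forward strand and lies wholly within the span of Nefm on chr14:68082590-68124846, which runs on the reverse strand. The strand setting of the counting is not given in the sources used here, so reads shared by Nefl and Nefm, and by Synm and the opposite gene Ttc23, may not be separable.

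The start regions of Nes, Vim and Gfap are shown because these 3 members carried most of the astroglial molecules and the results turn on them. They are RefSeq sequences of build GRCm38.p6, written 5′ to 3′ on the strand of the gene. In Nes the capitals mark 2 GC boxes (CCGCCC, the reverse complement of GGGCGG), which begin 73 and 62 bases before the start. In Vim the capitals mark a TATA box, which begins 32 bases before the start, and only the bases around it are shown because GENCODE places this stretch in an exon of a longer transcript. In Gfap none of the 4 motifs searched occurred, so nothing is in capitals.
Nes, chr3:87970843-87971077, forward strand: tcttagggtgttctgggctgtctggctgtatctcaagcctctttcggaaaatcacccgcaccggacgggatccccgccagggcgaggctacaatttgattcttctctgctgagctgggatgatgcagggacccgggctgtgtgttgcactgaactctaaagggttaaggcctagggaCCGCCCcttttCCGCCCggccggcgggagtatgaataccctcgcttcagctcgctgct
Vim, chr2:13574267-13574296, forward strand: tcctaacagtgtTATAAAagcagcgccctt
Gfap, chr11:102897201-102897450, reverse strand: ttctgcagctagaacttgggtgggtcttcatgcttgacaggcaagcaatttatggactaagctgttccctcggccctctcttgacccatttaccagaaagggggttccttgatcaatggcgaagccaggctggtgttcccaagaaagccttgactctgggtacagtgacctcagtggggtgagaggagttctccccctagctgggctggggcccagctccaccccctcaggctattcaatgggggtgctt

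The motifs were searched on both strands of the 250 bases before the start of 32851 RefSeq promoters. TATAAA occurred in 12.4% of them, CCAAT in 33.8%, GGGCGG in 32.7% and the AP-1 motif TGANTCA in 6.75%. Promoter sequences were matched for 6 of the 8 members. Vim also held CCAAT on both strands, Synm held it on the reverse strand, Des and Ina each held 2 GC boxes, and TGANTCA occurred in none of the 6. A match of letters is a description and not a binding site.

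The 6 libraries held 16690 barcodes, 11960 at P3 and 4730 at 3m, of which 14373 passed the filter on genes and mitochondrial reads and 9992 were the cells that the study re-clustered as astroglial. Total counts of unique molecular identifiers (UMIs, one for each captured RNA molecule) were 32193875 to 37795021 per P3 library and 5471573 to 10522151 per 3m library. Astroglial cells numbered 1985, 3103 and 3786 in the P3 libraries against 213, 546 and 359 in the 3m libraries, with median UMIs per cell of 5456 to 9665 and 2977 to 5326, so levels at 3m rested on far fewer molecules. The 6 astroglial markers Sox9, Slc1a3, Aldoc, Gja1, Aqp4 and Slc1a2 were all detected in the astroglial cells of every library, with summed levels of 4820 to 5778 CPM (UMIs per 1000000 UMIs in the same sum of cells) at P3 and 14366 to 15178 at 3m. The libraries differed in make-up, with cells of non-telencephalic sub-clusters forming 7.61%, 29.2% and 51.5% of P3 astroglia and 7.98%, 47.8% and 13.9% of 3m astroglia. Of 16653 different barcode sequences, 37 occurred in more than 1 library.

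The largest molecule number among the members belonged to Vim, with 108062 UMIs, followed by Nes with 17924, Gfap with 6704 and Synm with 3422. Des had 1552 UMIs, Nefm 483, Ina 446 and Nefl 444. The reads come from the 3′ end of the RNA and are not scaled to length, so no order between genes is drawn from them.

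In astroglial cells the vimentin and nestin transcripts fell steeply from P3 to 3m, whereas Gfap did not show a change beyond the spread of the libraries. Vim stood at 896, 1055 and 977 CPM in P3 replicates 1, 2 and 3 and at 29.4, 42.3 and 25.1 CPM in the 3m replicates. The P3 libraries lay within a narrow band and every 3m library lay far below it. The log2 fold change of Vim was -4.71 ± 0.25 (SE), a 26.3-fold lower level at 3m (edgeR quasi-likelihood test, Benjamini-Hochberg adjusted p = 1.8e-08).

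Nes stood at 165, 123 and 157 CPM at P3. At 3m it had 0, 4 and 2 UMIs in the 3 libraries, or 0, 2.17 and 1.36 CPM. The groups did not overlap. Nes passed the filter on low counts through the P3 libraries alone, which fixed its direction. Its fitted log2 fold change of -6.59 ± 0.35 is therefore a description. Without 3m replicate 2, which held 4 of the 6 UMIs, it was -7.45, and with a stricter cell filter (over 1000 genes and under 5% mitochondrial UMIs) it was -5.02. Of those 4 UMIs, 3 lay in 4 cells placed in sub-cluster 5, which otherwise held P3 cells. The ratio of the pooled levels was 109, with a 95% exact Poisson interval of 49.9 to 296 that covers counting error only.

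Gfap varied more among libraries of the same age than between ages. Its P3 levels were 38.2, 54.8 and 131 CPM and its 3m levels 32.0, 99.8 and 46.2 CPM. The groups overlapped, and the log2 fold change was -0.08 ± 0.43 (edgeR, adjusted p = 0.893). The libraries with the highest Gfap at each age, P3 replicate 3 and 3m replicate 2, were also those with the largest share of non-telencephalic cells. Within the telencephalic sub-clusters, defined below, P3 replicate 3 was still the highest P3 library, at 123 CPM against 36.5 and 51.8 CPM. There 3m replicate 2, at 20.6 CPM, lay below 3m replicate 3, at 29.0 CPM. The part of make-up in the Gfap spread was not tested.

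The other members were near the lower limit of detection in astroglia. Synm had 160 UMIs at P3 and 12 at 3m, and its mean level was 2.10 ± 0.77 CPM (SD, n = 3) at P3 and 2.37 ± 2.2 CPM at 3m. Nefm stood at 4.25, 1.63 and 2.89 CPM at P3 and at 0, 1.63 and 2.04 CPM at 3m, which overlapped. Ina had 87 UMIs at P3 and 10 at 3m. None of these 3 passed the test, and Des, with 37 and 2 UMIs, was too sparse to be tested.

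Nefl passed the filter on low counts only through the 3m libraries and so had to differ, and its fitted value is given as a description. It had 4, 14 and 7 UMIs at P3 and 2, 16 and 6 UMIs at 3m, which correspond to 0.18, 0.46 and 0.28 CPM against 1.73, 8.68 and 4.07 CPM. Its fitted log2 fold change was 4.18, or 3.34 without 3m replicate 2. Markers of neurons summed to 21.6 to 40.1 CPM in 3m astroglia and 21.9 to 26.5 CPM in P3 astroglia. The 6 oligodendrocyte markers summed to 708 to 1864 CPM at 3m against 5.45 to 6.40 CPM at P3, while Nefl itself was at 4.11 and 0.98 CPM in the oligodendrocyte clusters ODC_2 and ODC_10. Their part in the Nefl value was not tested.

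Of the 13530 genes tested in astroglia, 15.8% were called higher at 3m and 16.3% lower, where a call needed an adjusted p of at most 0.05 and a log2 fold change of at least 1 in size. With no scaling beyond the library totals these shares were 13% and 20.6%. Of the 8 members, 7 passed the filter and Vim, which passed it at both ages, was called lower. Nes was also called lower and Nefl higher, but each passed through the libraries of 1 age alone, which fixed its direction, so no number of called members is read against these shares.

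**Figure D1:**
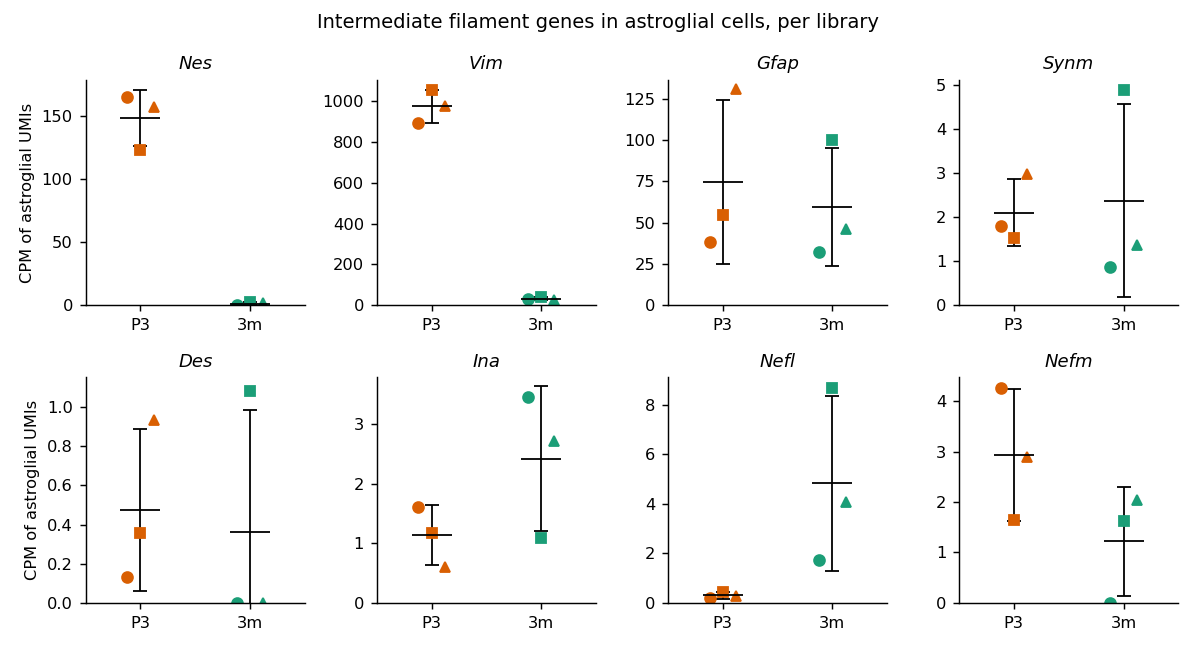
Level of each of the 8 genes in astroglial cells, in CPM (vertical axis), for the 3 P3 and the 3 3m libraries, with each point a library and the line and bar the mean ± SD. Vim and Nes separate by age, with 3m Vim at 25.1 to 42.3 CPM against 896 to 1055 at P3, while the Gfap points of both ages overlap.

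The make-up of the filament transcripts was set out by age and region. At P3, Vim supplied 81.0 ± 4.2% (SD, n = 3) of the members' UMIs in astroglia, Nes 12.4 ± 2.5% and Gfap 6.06 ± 3.7%. At 3m, Gfap supplied 55.0 ± 7.2%, Vim 33.4 ± 9.1% and Nes 0.99 ± 0.87%. Within the telencephalic sub-clusters at 3m, defined below, Vim was the larger, with 60.1 ± 15.8% against 32.6 ± 12.4% for Gfap, and within the non-telencephalic ones Gfap was, with 75.2 ± 5.4% against 7.58 ± 7.0% for Vim. The summed level of the 8 members was 1205 ± 87 CPM at P3 and 104 ± 51 CPM at 3m.

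The shares of cells with a UMI stood in the same order. To compare shares at equal depth, 2000 UMIs were drawn at random from every astroglial cell that had as many, and the rest were dropped. Vim was then detected in 76.2 ± 4.1% of P3 cells and 6.19 ± 0.98% of 3m cells, and Nes in 20.1 ± 2.8% and 0.27 ± 0.25%. Gfap was detected in 10.0 ± 5.1% and 7.78 ± 3.7%. The exact two-sided permutation test over the libraries gave p = 0.1 for Nes and for Vim, the smallest it can give with 3 libraries an age, which adjusts to 0.4 over the 8 members, and p = 0.6 for Gfap. Nes and Vim were the 2 of 8 members whose 3m libraries all lay below the P3 libraries, as did 34.8% of the 14028 genes detected often enough, and no member lay wholly above, as did 15.1%. Without thinning the shares were 47.5% and 0.31% for Nes, 91.9% and 10.7% for Vim, and 20.1% and 12.2% for Gfap.

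Microglia, which belong to another lineage, were counted in the same way for comparison. At P3, Nes was detected in 10.5% of 105 thinned microglia (95% Wilson interval 5.95% to 17.8%) and Vim in 13.3% (8.11% to 21.1%), below the astroglial shares, with median depths of 6223 UMIs in microglia and 7307 in astroglia. At 3m, Vim was detected in 3.77% of 53 microglia (1.04% to 12.8%), an interval that includes the 3m astroglial share. In the 3m oligodendrocytes, however, pooled Vim was at 3.95 CPM in ODC_2 and 4.30 CPM in ODC_10, against 33.3 CPM in 3m astroglia. Nes was detected in 0 of the 53 microglia, which allows a share of up to 5.66% of cells with a UMI, above the 3m astroglial share. The part of stray RNA in the 3m astroglial values was not tested. Median depths at 3m were 3940 UMIs in microglia and 3631 in astroglia.

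Gfap moved in opposite directions in 2 sets of astroglial sub-clusters. The study places sub-clusters 0, 1, 2, 6, 8, 9 and 11 at P3 and 7 and 14 at 3m with telencephalic astrocytes or on the path to them, and names the others as possible cells of adjacent regions. In the telencephalic set, Gfap stood at 36.5, 51.8 and 123 CPM at P3 and at 10.0, 20.6 and 29.0 CPM at 3m. All 3m libraries lay below all P3 libraries, and the log2 fold change was -1.62 ± 0.41 (edgeR, adjusted p = 0.00286). Without P3 replicate 3, the highest library, it was -0.95 (edgeR, adjusted p = 0.0116), which no longer reached the fold threshold.

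In the non-telencephalic set, Gfap stood at 67.7, 66.7 and 150 CPM at P3 and at 423, 188 and 139 CPM at 3m. The lowest 3m library lay below the highest P3 library, and the highest 3m value came from 17 cells of replicate 1. The log2 fold change was 1.45 ± 0.30 (edgeR, adjusted p = 0.000244). Oligodendrocyte markers in these cells summed to 2852 to 23362 CPM at 3m and 5.04 to 6.69 CPM at P3, against 201 to 353 and 5.56 to 6.39 CPM in the telencephalic set. Gfap itself was at 8.23 CPM in ODC_2 and 0.98 CPM in ODC_10, below its level in the 3m non-telencephalic astroglia. The difference between the 2 sets was not tested, because the sub-clusters were formed from the expression of the same cells.

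Vim and Nes fell in both sets. In telencephalic cells Vim went from 864, 946 and 836 CPM to 31.0, 48.5 and 26.6 CPM, and in non-telencephalic cells from 1459, 1485 and 1316 CPM to 0, 35.5 and 17.4 CPM. The log2 fold change of Vim in telencephalic cells was -4.49 (edgeR, adjusted p = 2.83e-11). In non-telencephalic cells Vim passed the filter through the P3 libraries alone, which fixed its direction. Its fitted value there of -5.34, or -6.49 without 3m replicate 2, is a description. Nes went from 166, 127 and 154 CPM to 0, 1.03 and 0 CPM in telencephalic cells, where 1 UMI was left at 3m and the ratio of pooled levels had an interval of 87.6 to 19275. In non-telencephalic cells it went from 138, 109 and 162 CPM to 0, 3.43 and 8.68 CPM. A few 3m cells lay in non-telencephalic sub-clusters otherwise made of P3 cells. The 4 such cells of sub-cluster 5, all of replicate 2, held 20 of that library's 31 Vim UMIs and 3 Nes UMIs. The 1 such cell of sub-cluster 4, from replicate 3, held 1 Nes UMI.

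Nefm had 185 UMIs at P3 and 1 at 3m in telencephalic cells. It passed the filter through the P3 libraries alone, which fixed its direction, and its fitted log2 fold change of -3.06 is a description. In the telencephalic set 16.6% of 12804 genes were called higher at 3m and 17.8% lower, and of the 6 members that passed the filter Vim and Gfap were called lower, beside Nes and Nefm, whose direction the filter fixed. In the non-telencephalic set 15.1% of 8822 genes were called higher and 14.4% lower (10.2% and 24.2% with no scaling beyond the library totals), and 3 members passed the filter, with Gfap called higher and Nes and Vim lower, the last 2 through the P3 libraries alone.

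Across the sub-clusters, Nes and Vim were high in several P3 sub-clusters, among them the progenitor sub-clusters 6 and 8. Pooled Gfap was highest in the P3 sub-clusters 9 and 11. These levels are descriptions, since the sub-clusters were formed from the same expression values. In sub-clusters 6, 8 and 2, pooled Nes was 219, 221 and 223 CPM, pooled Vim 1059, 1202 and 1148 CPM and pooled Gfap 13.3, 7.38 and 8.30 CPM. In the P3 cells of the non-telencephalic sub-clusters 3, 4, 5, 10 and 12, pooled Nes was 115, 187, 131, 201 and 219 CPM. Pooled Vim in these was 1464, 1091, 1258, 1185 and 1029 CPM. In sub-cluster 0, the main group of P3 telencephalic astrocytes, Nes was at 53.9, 60.0 and 66.1 CPM in the 3 libraries, Vim at 733, 717 and 621 CPM and Gfap at 45.1, 76.6 and 150 CPM. Sub-cluster 1, nearly all of which came from P3 replicate 1, had pooled levels of 113 CPM for Nes, 679 CPM for Vim and 48.5 CPM for Gfap.

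The P3 sub-clusters 9 and 11 had more Gfap, beside Vim that still exceeded it. Sub-cluster 11 had the lowest P3 Nes, with 11.1, 10.0 and 15.3 CPM, and the lowest P3 Vim, with 377, 492 and 379 CPM, beside Gfap of 128, 204 and 418 CPM. Sub-cluster 9 had pooled Nes of 90.5 CPM and Vim of 728 CPM, both above sub-cluster 0, and pooled Gfap of 305 CPM, with 180 and 359 CPM in the 2 libraries that had at least 10 of its cells. Among the P3 sub-clusters, the multiciliated sub-cluster 15 had the highest pooled Vim, 2114 CPM, with 2113, 1956 and 2227 CPM in its libraries.

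The 3m sub-clusters shared the near absence of Nes and low Vim but not their Gfap. Sub-cluster 7, the largest, had pooled Gfap of 25.1 CPM and sub-cluster 14, which came almost wholly from 3m replicate 1, had 10.3 CPM. Sub-clusters 13 and 16 had 204 and 157 CPM. Pooled Vim was at 35.8, 31.8, 14.5 and 8.04 CPM in sub-clusters 7, 14, 13 and 16, and Nes had 1, 0, 0 and 1 UMI.

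**Figure D2:**
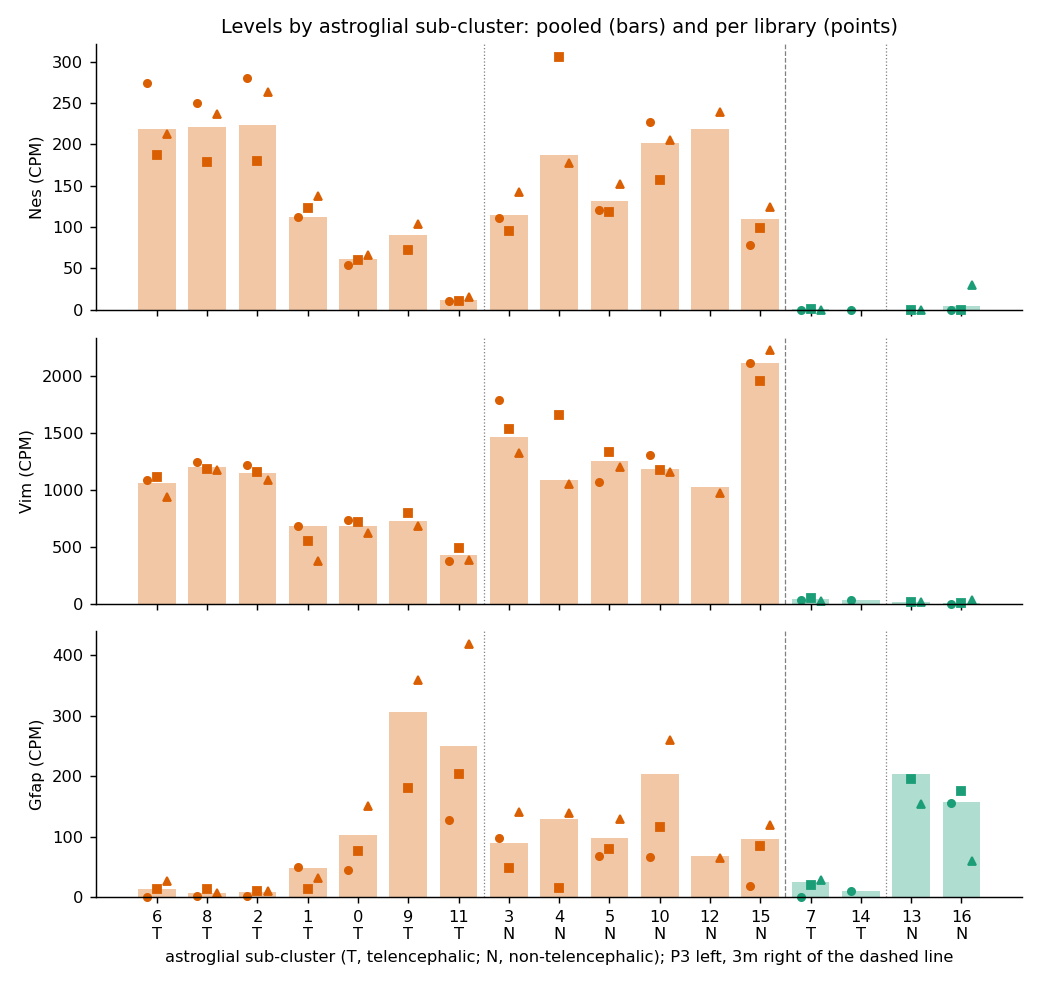
Pooled level of Nes, Vim and Gfap (vertical axes, CPM) in each astroglial sub-cluster (horizontal axis), with bars for the pooled cells, points for the libraries with at least 10 cells (circle, square and triangle for replicates 1, 2 and 3), and T or N for telencephalic or non-telencephalic. Gfap reaches 305 CPM in the P3 sub-cluster 9 and 204 CPM in the 3m sub-cluster 13, and stays under 14 CPM in the P3 sub-clusters 2, 6 and 8.

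Along the pseudotime that the authors had inferred from progenitors to mature telencephalic astrocytes, Nes and Vim were lower in the later bins while Gfap was highest late in the P3 part. The trajectory held 5089 P3 and 790 3m cells. The levels along it are descriptions, since the pseudotime was inferred from the expression of the same cells. Pooled Nes stayed between 184 and 260 CPM through bins 2 to 12, was at 101 CPM in bin 13 and 47.4 CPM in bin 14, and had at most 1 UMI in each of bins 15 to 19. Pooled Vim was 955 CPM or more through bin 12, then 790 CPM in bin 13, 569 CPM in bin 14 and 27.4 to 47.1 CPM in the 3m cells of bins 15 to 19.

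Gfap was at 1.88, 12.6 and 20.8 CPM in the P3 libraries in bin 12, at 15.9, 43.0 and 45.1 CPM in bin 13 and at 39.1, 113 and 210 CPM in bin 14. Each P3 library had more Gfap in bin 14 than in bin 12. The 9 P3 cells of bin 15 had a pooled level of 699 CPM, whereas 3m cells of bins 15 to 19 had 11.8 to 39.4 CPM. Bins up to 14 were nearly all P3 cells and bins 16 to 19 were all 3m cells, so pseudotime and age cannot be told apart across that border.

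**Figure D3:**
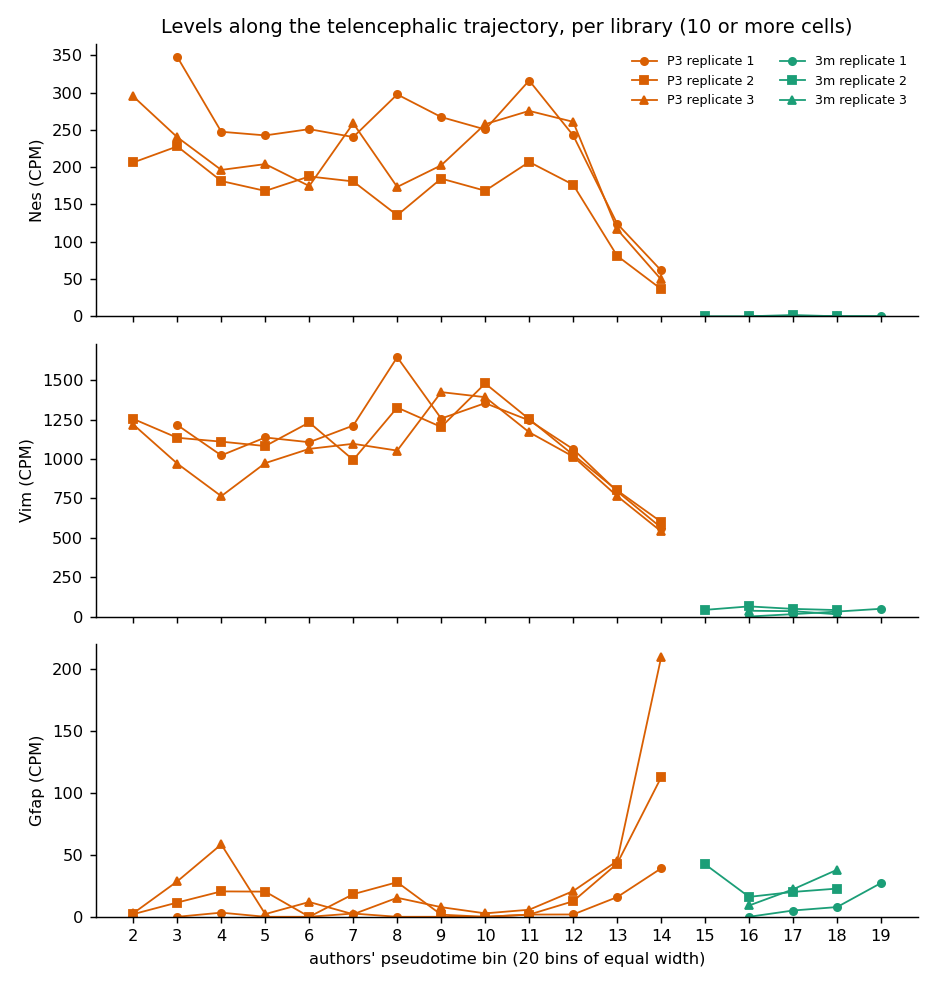
Level of Nes, Vim and Gfap in CPM (vertical axes) against the pseudotime bin (horizontal axis), with a line for each library with at least 10 cells in the bin. Nes and Vim step down at bins 13 and 14, where Gfap reaches 39.1 to 210 CPM in the P3 libraries, and all 3m lines lie low.

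Among P3 astroglia, cycling cells had far less Gfap than non-cycling cells and more Nes. Cycling cells were those with a UMI of at least 2 of Mki67, Top2a and Cdk1, which gave 1312 cycling and 7562 non-cycling cells, compared within each library. Gfap was at 3.56, 14.7 and 19.98 CPM in cycling cells against 51.5, 70.5 and 169 CPM in non-cycling cells of the same libraries, lower in 3 of 3. Its log2 fold change, cycling over non-cycling, was -2.77 ± 0.16 (edgeR with the library as a block, adjusted p = 3.17e-09). The 6 astroglial markers also summed lower in cycling cells, at 2547 to 2811 CPM against 5707 to 6860 CPM. The part of this difference in the Gfap value was not tested.

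Nes was at 264, 183 and 218 CPM in cycling cells against 127, 99.9 and 136 CPM in non-cycling cells, higher in 3 of 3. Its log2 fold change of 0.97 ± 0.07 (edgeR, adjusted p = 2.11e-08) lay just under the fold threshold and was 1.06 without P3 replicate 3. Vim differed less, at 1176, 1188 and 1117 CPM against 789, 1002 and 929 CPM, a log2 fold change of 0.46 (edgeR, adjusted p = 3.11e-05).

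Among the neuronal members, Nefm was called higher in cycling cells, at a low level. It was at 7.44, 2.91 and 4.63 CPM against 3.04, 1.14 and 2.29 CPM, with a log2 fold change of 1.31 ± 0.22 (edgeR, adjusted p = 0.00018). Ina had 20, 18 and 6 UMIs in cycling cells and 16, 18 and 9 UMIs in non-cycling cells, and it passed the filter through the cycling cells alone, so its fitted log2 fold change of 1.505 is a description. In this comparison 8.94% of 13306 genes were called higher in cycling cells and 8.06% lower, and 6 members were tested.

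Nes and Gfap molecules were also counted together cell by cell. Among thinned telencephalic P3 cells, Nes was detected in 7.92%, 7.01% and 9.26% of cells with a Gfap UMI and in 22.1%, 17.9% and 20.3% of cells without one, lower in 3 of 3 libraries. In sub-cluster 0 alone the values were 0%, 7.06% and 6.00% against 8.99%, 10.9% and 11.6%. In non-telencephalic cells the order was the other way, with 28.6%, 17.4% and 33.5% against 23.4%, 16.1% and 25.3%. These shares were not tested, and 1 P3 library had 14 non-telencephalic cells with Gfap after thinning.

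Outside the astroglia, Nes and Vim shared vessel clusters, Des was highest in mural cells, and Ina, Nefl and Nefm were highest in neurons. Endothelial clusters held Nes and Vim at both ages. In the P3 endothelial cluster END_7, Nes stood at 297, 245 and 247 CPM, and in the 3m endothelial cluster END_17 at 226, 206 and 185 CPM. Vim was at 1032, 1196 and 975 CPM in END_7 and at 1229, 1335 and 915 CPM in END_17. The libraries of the 2 clusters overlapped for Vim, while the lowest Nes value of END_7 lay just above the highest of END_17. No test was made between clusters.

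Among clusters with values from 3 libraries, Synm was highest in endothelial cells. It was at 130, 89.98 and 91.0 CPM in END_7 and at 130, 144 and 146 CPM in END_17, and these neighbours in the order of levels touched at one library each. The oligodendrocyte clusters of the 3m libraries came next, with Synm at 89.2, 62.9 and 66.0 CPM in ODC_2 and at 81.9, 49.4 and 59.5 CPM in ODC_10. In those clusters Des had no UMI. The small cluster LOW_23, whose 5 multiciliated markers summed to 9747 and 10207 CPM in replicate 2 of each age, had pooled Synm of 111 CPM in 31 P3 cells and 211 CPM in 14 3m cells, nearly all from that replicate.

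Des followed mural cells. The P3 cluster named pericytes, PER_6, had Des at 182, 212 and 248 CPM, above every other cluster with values from 3 libraries. The 3m cluster LOW_21, whose 8 mural markers summed to 36286 to 50214 CPM, had 105, 50.7 and 121 CPM. END_17 had 37.4, 46.7 and 46.2 CPM and END_7 25.6, 32.1 and 22.9 CPM, and none of these 4 neighbours overlapped. Mural markers also summed to 6405 to 7393 CPM in END_17 and 2144 to 3606 CPM in END_7, and their part in the endothelial Des was not tested. PER_6 also had Nes at 245, 185 and 225 CPM and Vim at 1509, 1732 and 1855 CPM.

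At P3 most Nefl molecules were carried by very few neurons. The P3 cluster NEU_22 held 53 neurons, 14, 23 and 16 in the 3 libraries, and its 248 Nefl UMIs all came from 6 cells of replicate 2. Those 6 cells had 13823 to 44750 UMIs each, with 14 to 68 Nefl UMIs, and together 221 Nefm and 225 Ina UMIs. The other 2 libraries had no Nefl UMI in their neurons. Nefm was divided, with 222 of its 452 P3 UMIs in neurons and 216 in astroglia, and in P3 replicates 1 and 3 the astroglia held 99.0% and 89.9% of it. No 3m cell was named a neuron, and at 3m 57.4% of the 141 Nefl UMIs lay in barcodes left out by the filter. Ina reached 174, 995 and 288 CPM in the neurons of the 3 libraries and was next highest in P3 oligodendrocyte precursors, with 33.1, 93.3 and 41.9 CPM.

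**Figure D4:**
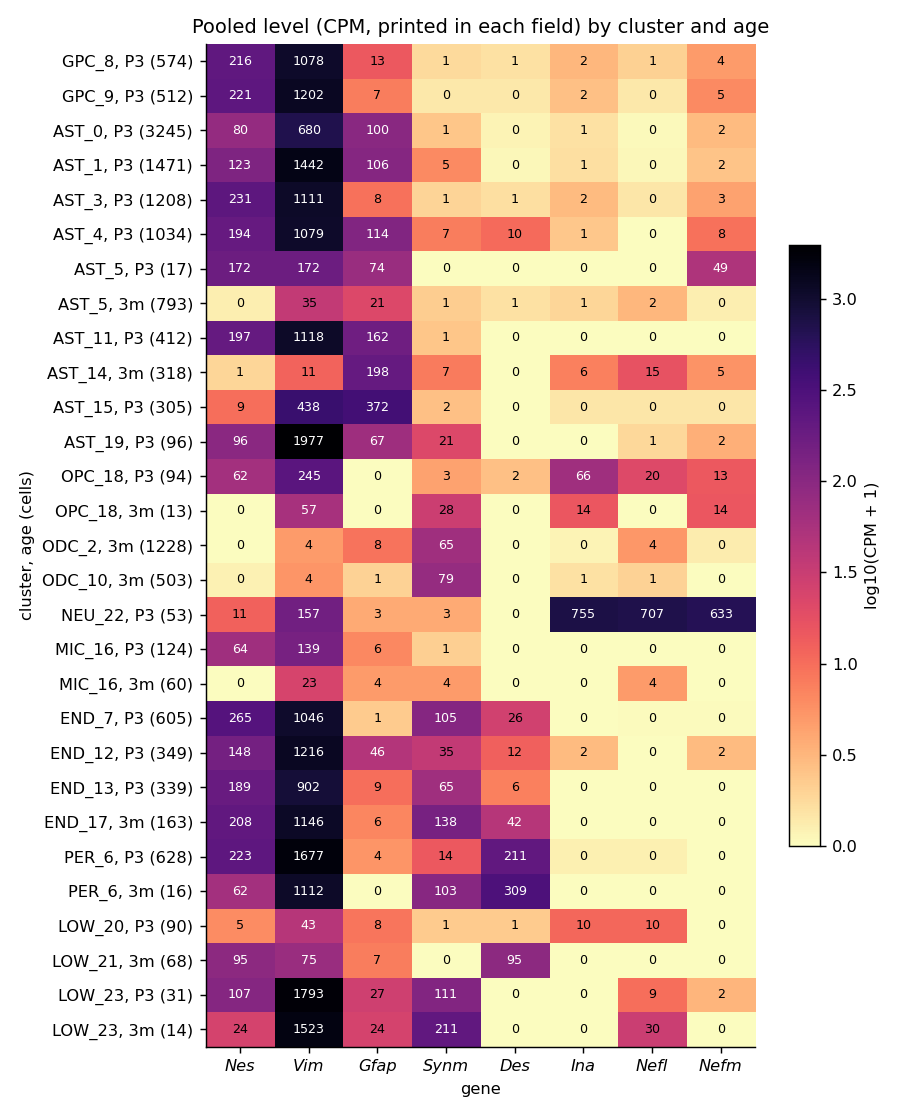
Pooled level of the 8 genes (columns) in each of the authors' clusters by age with at least 10 cells (rows), in CPM on a log colour scale with the value printed in each field. Des is strongest in the mural cluster PER_6, Ina, Nefl and Nefm in the neurons NEU_22, Synm in the multiciliated-marker cluster LOW_23, endothelial and oligodendrocyte clusters, and Gfap in astroglial clusters.

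In microglia Vim rested on few molecules, with 125 UMIs at P3 and 6 at 3m. It stood at 235, 54.6 and 142 CPM at P3 and at 29.6, 29.8 and 0 CPM at 3m, with no overlap. It passed the filter through the P3 libraries alone, which fixed its direction, and its fitted log2 fold change of -2.45 is a description. Nes had 58 UMIs in P3 microglia and 0 at 3m, which put P3 at least 5.49-fold higher against a floor of 3 UMIs over the 3m group, and it was too sparse to be tested. Of 2679 genes tested in microglia, 6.68% were called higher at 3m and 3.43% lower (5.41% and 5% with no scaling beyond the library totals). The astroglial markers summed to 140 to 994 CPM in P3 microglia and 112 to 751 CPM in 3m microglia, and their part in the result was not tested.

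In the sums over all barcodes, 4 members were called, Synm higher at 3m and Nes, Vim and Des lower. In such sums, fewer cells of a type and less RNA per cell cannot be told apart. Oligodendrocytes held 48.4% of the UMIs at 3m and none at P3. Of the 15407 genes tested, 18.4% were called higher at 3m and 16.1% lower (15.4% and 19.9% with no scaling beyond the library totals).

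Synm rose from 30.8, 13.04 and 23.2 CPM at P3 to 50.2, 46.2 and 46.1 CPM at 3m, with no overlap, a log2 fold change of 1.30 ± 0.24 (edgeR, adjusted p = 0.00193). Endothelial cells held 87.9% of the Synm UMIs at P3, while oligodendrocytes held 71.6% at 3m. Des fell from 16.1, 10.3 and 15.4 CPM to 4.56, 2.52 and 5.30 CPM, a log2 fold change of -1.56 ± 0.27 (edgeR, adjusted p = 0.00117), and 62.7% of its P3 UMIs came from cells named pericytes against 15.8% at 3m.

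Vim and Nes also fell over all barcodes. Vim was at 942, 1061 and 997 CPM at P3 and 88.0, 103 and 81.1 CPM at 3m, a log2 fold change of -3.27 ± 0.18 (edgeR, adjusted p = 1.14e-06). Nes was at 195, 135 and 176 CPM and 13.1, 9.24 and 15.5 CPM, a log2 fold change of -3.55 ± 0.21 (edgeR, adjusted p = 1.99e-06). At P3, 64.0% of Nes UMIs came from astroglia and 29.3% from endothelial cells, whereas at 3m 88.9% came from endothelial cells. For Vim the astroglial share was 72.0% at P3, and endothelial cells held 67.0% of the UMIs at 3m.

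Over all barcodes the 3 neuronal members were not called, although 8 of 12 alternatives called Nefm. With the replicate number as a block, Nefl had a log2 fold change of 2.36 (edgeR, adjusted p = 0.00387) and Nefm one of -1.29 (edgeR, adjusted p = 0.0132), against 1.33 (edgeR, adjusted p = 0.311) and -1.43 (edgeR, adjusted p = 0.0512) without it. The P3 level of Nefl rested on replicate 2, with 279 UMIs against 8 and 16. Nefl passed the filter on low counts through the 3m libraries, so its fitted values here are descriptions. Without P3 replicate 2 it passed through the 3m libraries alone, which fixed its direction, and the fitted log2 fold change was 4.37.

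Gfap over all barcodes did not differ beyond the library spread, at 27.1, 44.9 and 93.1 CPM against 24.2, 53.9 and 32.3 CPM (edgeR, adjusted p = 0.473). At P3, 97.7% of Gfap UMIs lay in astroglia. At 3m, 35.4% lay in astroglia and 56.3%, 460 of 817 UMIs, in barcodes that the cell filter had left out. These 1545 barcodes held 24.0% of all 3m UMIs, and Gfap in them was at 53.1, 179 and 124 CPM, higher in each library than in the astroglial cells that passed.

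**Figure D5:**
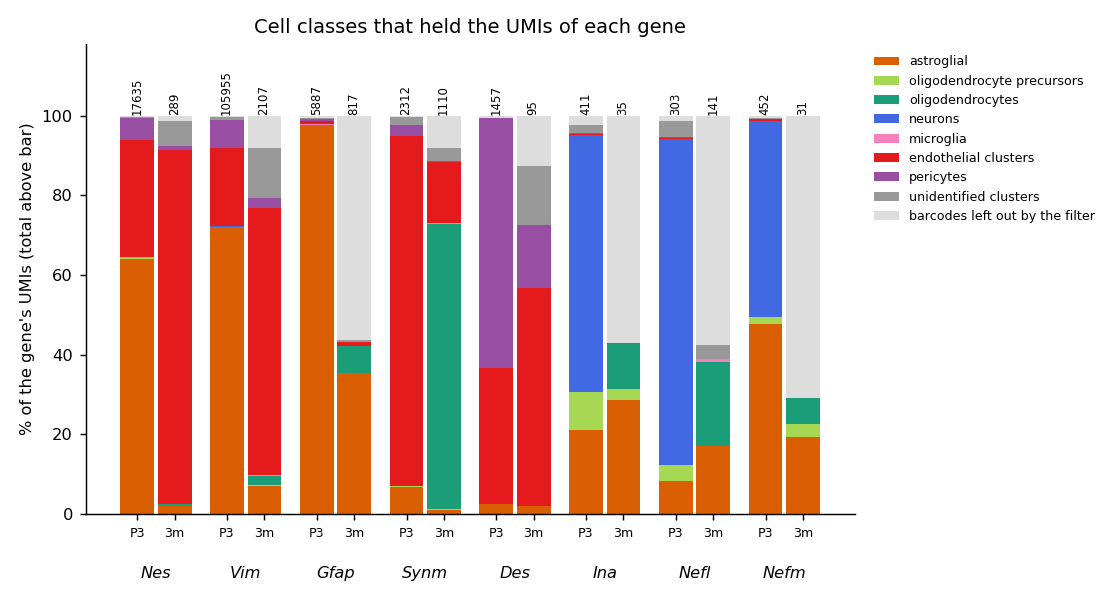
Share of each gene's UMIs (percent, vertical axis) that came from each class of cells at P3 and at 3m, with the total UMIs printed above each bar. Nes and Vim pass from mainly astroglial at P3 to mainly endothelial at 3m, Synm from endothelial to oligodendrocyte, and Gfap at 3m lies mostly in barcodes left out by the cell filter.

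Over 24 combinations of cluster and age with at least 50 cells, the gene with the pattern most like Nes was Tead2 (Pearson r = 0.92 of log2(CPM + 10), among 7909 genes), followed by Vim (0.89) and Smn1 (0.88). Vim was most like Ccn1 (0.91), Nes (0.89) and Tead2 (0.89). Des was most like Tbx18 (0.99), Tbx2 (0.98) and Foxd1 (0.98), Synm most like Ddc (0.94), Cd59a (0.93) and Afap1l1 (0.90), and Gfap most like P4ha3, Igfbp5 (0.87 each) and Sfxn5 (0.86). Nes and Gfap had r = -0.02. The points share libraries and depth, and these are descriptions without a test.

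Other filament genes, a list of 22 keratins, lamins, beaded filament and related genes, were mostly too low in astroglia, where 7 could be tested, with 2 called lower and none higher. Over all genes tested there, 16.3% were called lower and 15.8% higher. The median log2 fold change of the 7 was -0.60, against -0.04 over all genes tested. Lmnb1, a lamin of the nuclear envelope, was at 160, 141 and 176 CPM at P3 and 2.59, 2.17 and 3.40 CPM at 3m. It fell by 5.69 on the log2 scale (edgeR, adjusted p = 4.64e-09). Its level in cycling P3 cells was 425 CPM against 57.9 CPM in non-cycling ones. Bfsp2, a beaded filament gene of the lens, was the other, on 446 and 9 UMIs. It passed the filter through the P3 libraries alone, which fixed its direction, so its fitted -1.32 is a description. In the oligodendrocyte clusters ODC_2 and ODC_10 it was at 145 and 169 CPM.

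Of 20 genes for linkers, chaperones and modifiers of filaments, 17 could be tested in astroglia, with 7 called higher and 4 lower and a median of 0.02. Over all genes tested, 15.8% were called higher and 16.3% lower. The 4 called lower passed the filter through the P3 libraries alone and Padi2, called higher, through the 3m libraries alone. This fixed their direction, so the counts are not read against these shares. The spectraplakin gene Dst rose by a log2 fold change of 2.18 (edgeR, adjusted p = 9.81e-07), and its relative Macf1, whose product binds actin and microtubules, by 1.36 (edgeR, adjusted p = 6.56e-05). Dst was also at 281 and 310 CPM in the oligodendrocyte clusters ODC_2 and ODC_10, against a mean of 160 CPM in 3m astroglia. The part of stray oligodendrocyte RNA in the Dst value was not tested. The dystrophin complex genes Dmd, Dtna and Utrn rose as well, by 1.44, 1.60 and 1.16 on the log2 scale. Dtna was at 143, 109 and 142 CPM at P3 and at 494, 257 and 304 CPM at 3m. Plec, which links filaments to the membrane, did not pass the test at a log2 fold change of 0.02 (edgeR, adjusted p = 0.962).

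The small heat shock chaperone gene Cryab rose by 3.84 on the log2 scale (edgeR, adjusted p = 3.51e-08), from 13.6, 21.3 and 24.0 CPM to 255, 257 and 232 CPM. Padi2, which encodes a filament-citrullinating enzyme, rose by a fitted 5.65 on that scale, a description because the filter fixed its direction. Both were also expressed in oligodendrocytes, Cryab at 6138 and 6265 CPM and Padi2 at 34.9 and 55.2 CPM in ODC_2 and ODC_10, and the part of stray oligodendrocyte RNA was not tested. Hspb1, another small heat shock gene, fell by a fitted 3.07 on the log2 scale on 173 and 1 UMIs, also a description. The mitotic kinase genes Aurkb, Plk1 and Cdk1, whose products phosphorylate filament proteins, were the others that fell. Cdk1 and Aurkb had no UMI in 3m astroglia and were at least 183-fold and 51.3-fold higher at P3 against the floor of 3 UMIs over the group.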

How the data were processed

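Droplet 3′ single-cell RNA-Seq (10x Genomics) measured RNA in 6 libraries, 3 at P3 and 3 at 3m. The authors aligned and counted reads with Cell Ranger on build mm10, merged the libraries in Seurat, kept barcodes with over 500 genes and under 10% mitochondrial reads, clustered them, re-clustered the astroglial cells and inferred pseudotime with Slingshot. The deposited counts are raw UMI counts per gene and barcode, and the deposited pseudotime is a score, cut by the authors into 20 equal bins. Cluster and sub-cluster names were taken from the deposited cell tables. Doublet removal is not given in the sources used here, and no doublet caller was run.

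Here UMIs were summed per library and cell class, since cells are not replicates, and tested with edgeR 4.0.16 (R 4.3.3) quasi-likelihood fits with TMM scaling and filterByExpr, with Benjamini-Hochberg adjustment over all genes tested. A call needed an adjusted p of at most 0.05 and a log2 fold change of at least 1 in size. A fold sets 3m against P3, or cycling against non-cycling cells of the same library (library as a block). CPM means UMIs per 1000000 UMIs in the same sum. Groups came from the labels. The 8 members were described in every comparison, the genes of the further lists were counted in every comparison and named where called in astroglia, and the most similar genes were the 3 with the highest correlation over clusters. The members and lists were chosen with earlier results of these data known. P3 replicate numbers match those of 3m replicates. In all barcodes the deviations of same-numbered libraries correlated at r = 0.59, 0.43 and 0.23, above every pair of different numbers. In astroglia these values were 0.39, 0.18 and 0.10. Pairs of different numbers there reached 0.20 (P3 replicate 3 with 3m replicate 2) and 0.15 (P3 replicate 2 with 3m replicate 3). Astroglia thus showed no clear match by number beyond replicate 1. The fits with the number as a block are given where they change a call. Intervals (exact Poisson, Wilson) are at 95%. Intervals and floors cover counting error only. The tests were tried on simulated data, and the alternatives included DESeq2 1.42.0, other scalings, filters and cells, and leaving out each library. The labels do not say whether libraries of an age came from separate animals, so p-values measure the spread between these preparations. Promoter sequences were read from RefSeq and positions from GENCODE M21.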

Additional observations from a re-analysis of the deposited data

How the results depend on the processing

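The 18 called member values were recomputed under 204 alternatives. Several of these values passed the filter through 1 group alone, as given above, so their kept direction was fixed in advance. Direction and call were kept in 198, 6 kept the direction and lost the call, and none reversed. The 6 were Nefm in telencephalic cells without 3m replicate 1 or 2 (edgeR, adjusted p = 0.0799 and 0.0745), Gfap there without P3 replicate 3, and Vim in microglia without any one 3m library, where the adjusted p (edgeR) was 0.117, 0.0977 and 0.126. The replicate block called Nefl (2.36, a description as given above) and Nefm (-1.29) over all barcodes and changed no other call. Nefm over all barcodes was called in 8 of 12 alternatives, at log2 fold changes down to -2.83. Of the values not called, Gfap ranged over libraries left out from -0.76 to 0.57 in astroglia (0.16 without 3m replicate 1, 0.02 without 3m replicate 3) and from -0.78 to 0.18 over all barcodes. Synm ranged from -0.73 to 0.80 in astroglia and from -0.23 to 0.52 in telencephalic cells, and Ina over all barcodes from -1.63 to 0.25. Ina in astroglia was called at 1.61 without the progenitors (edgeR, adjusted p = 0.0464), and Synm in cycling cells was called at -1.49 when cycling was called after thinning and at -1.80 with progenitor sub-clusters against the others. In the last setting Synm had 11 and 1 UMIs in sub-clusters 6 and 8. There it passed the filter through the other cells alone, which fixed its direction, so -1.80 is a description. Differences in shares of cells with a UMI, in percentage points at 3m minus P3, ranged over libraries left out from -4.26 to 0.637 for Gfap, -0.157 to 0.172 for Nefm (0.0769 without P3 replicate 3), -0.426 to 0.0675 for Synm and -0.0625 to 0.0610 for Des. Synm was 0.120 at 4000 UMIs, Des -0.0710 at 1000 UMIs and -0.219 with no thinning, and Ina -0.119 at 4000 UMIs. The number of members called was 2 to 4 over the libraries left out in telencephalic cells, 0 to 1 in microglia, and 2 to 5 for shares not overlapping. Of 9646 to 13982 genes tested there in telencephalic cells, 1637 to 2066 were called higher and 1568 to 2362 lower. Of 1618 to 4347 genes tested in microglia, 80 to 163 were called higher and 45 to 103 lower. With no filter on low counts it was 5 in non-telencephalic cells and 2 in microglia, with progenitor sub-clusters against the others it was 5, and for shares it was 4 at 1000 UMIs and 4 with no thinning. The causes were not tested. Depth limits the 3m values, with 6 Nes and 149 Vim UMIs in all 3m astroglia.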
